A study of Saccharomyces cerevisiae with 6 samples.

Results

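The genes described here are 37 of the 6212 ORFs on the arrays. They encode cytosolic aminoacyl-tRNA synthetases with *ARC1* (19 genes), and enzymes that modify tRNA nucleosides (18 genes). The set is not complete, and a prolyl-tRNA synthetase is not among the genes. The 37 genes were chosen by ORF name from general knowledge of their function, outside chromosomes XII and XIII. No limit on their measured values was used, but earlier results of these data were known when they were chosen. Of the modification genes, 12 encode methyltransferases or their partner subunits and 4 encode pseudouridine synthases. The remaining 2 catalyse or assist other reactions, *MOD5* (isopentenylation) and *TAN1* (acetylation). All 19 synthetase genes had a value on all 6 arrays, and so did 12 of the 18 modification genes.

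Aminoacyl-tRNA synthetases join each amino acid to its tRNAs and so supply translation with charged tRNA. Modification enzymes methylate, pseudouridylate or otherwise alter nucleosides of the tRNA body and of the anticodon loop, which affects folding, stability and decoding. The TORC1 kinase complex, which rapamycin inhibits, promotes in yeast the transcription of genes for ribosomal proteins and ribosome assembly, and in many growth conditions genes of the translation machinery follow them.

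Wild type BY4741 cells, *ptc6* mutant cells and *ptc1 ptc6* double mutant cells of the same background, growing in rich medium, received rapamycin (200 ng/ml) or its vehicle for 1 h. *PTC6* and *PTC1* encode type 2C protein phosphatases, and treated and untreated cells of a strain carried the same deletions. By the treatment protocol a culture was split into a treated and a mock aliquot. The design description gives each strain 1 biological replicate on 2 arrays with the dyes exchanged, and calls these technical replicates. Values are log2 ratios of rapamycin over mock, and a gene is called repressed when the mean of both arrays was below -1, a 2-fold reduction. No test was made, since by that description the spread between the 2 arrays is technical and holds no variation between cultures. In RNA from whole cultures, fewer cells with a transcript and less of it per cell cannot be told apart.

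The arrays held between 3620 and 4546 values each, 32 to 36 of them for the genes described here, and their medians lay between 0.01 and 0.10. Both arrays of a strain correlated across genes with a Pearson r of 0.969 (wild type), 0.952 (*ptc6*) and 0.925 (*ptc1 ptc6*). *PTC6* gave 1.11 and 0.62 in wild type cells, and neither mutant had a value for it. *PTC1* had 1 value, -0.28 on a wild type array, and therefore gives no check of the double mutant.

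In wild type cells, 19 of the 32 genes measured on both arrays were repressed (59.4%), against 18.1% of all 2960 genes measured outside chromosomes XII and XIII. None was above 1, where 14.7% of all genes lay, and all 32 means were below 0. Among the synthetase genes 10 of 19 were repressed (52.6%), with a median log2 ratio of -1.06 that ran from -2.17 to -0.08. Of the 13 modification genes measured, 9 were repressed (69.2%), with a median of -1.42 and a range of -3.24 to -0.40. The ranges of both classes overlapped, and 5 modification genes (*TRM8*, *TRM11*, *TRM3*, *TRM1* and *NCL1*) lay below the lowest synthetase.

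**Figure D1:**
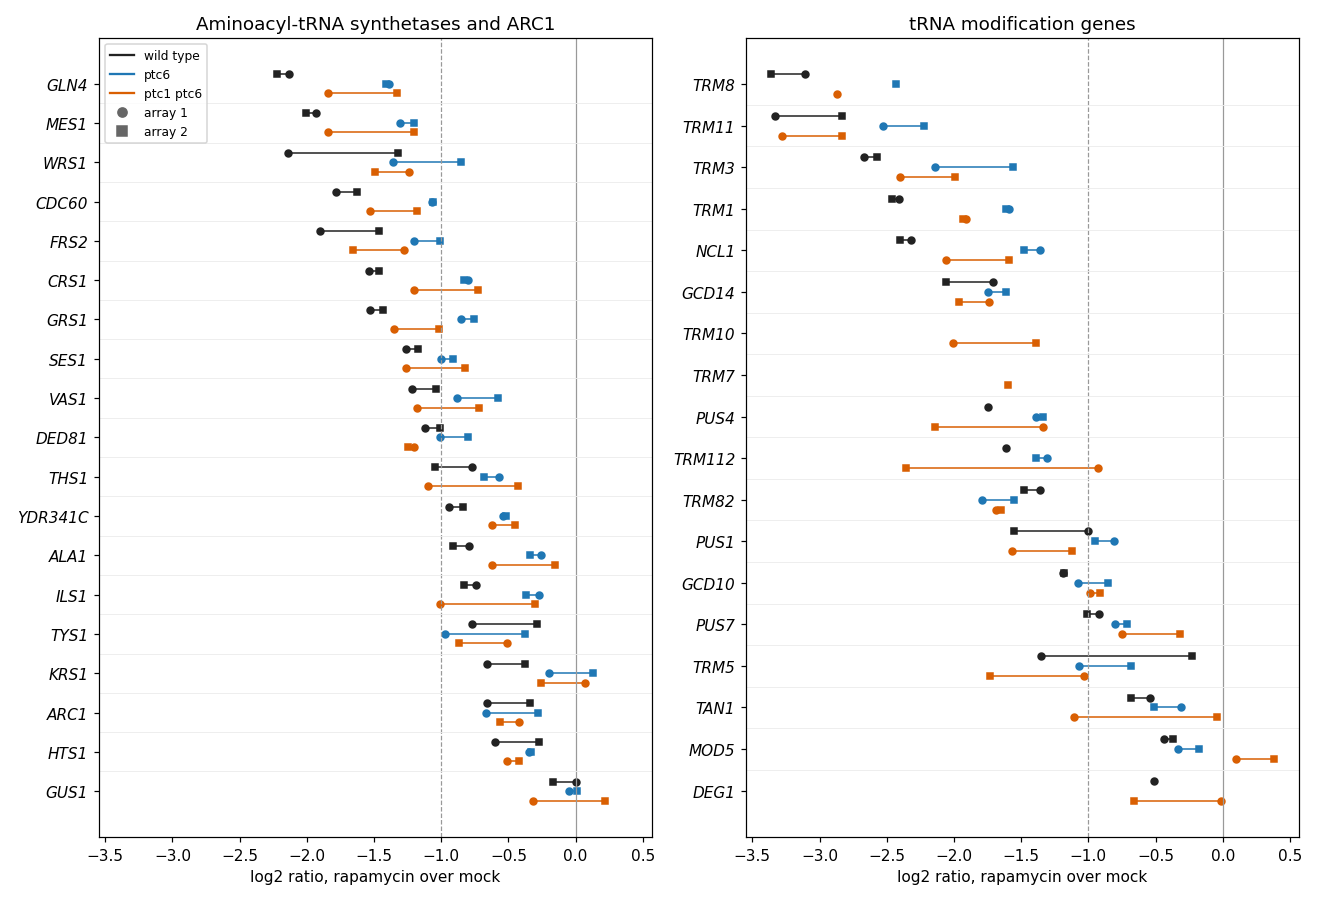
Log2 ratio of rapamycin over mock (x axis) for each synthetase gene (left) and modification gene (right), with genes ordered by their wild type mean (or the mean of the values present). Circles and squares are arrays 1 and 2 of a strain, joined by a line, the dashed line marks the 2-fold limit, and the lowest wild type mean was -2.17 among the synthetases and -3.24 among the modification genes.

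The lowest synthetase genes in wild type cells were those for glutamine, methionine, tryptophan and leucine. *GLN4* (YOR168W), the glutaminyl-tRNA synthetase, had log2 ratios of -2.13 (array 1) and -2.22 (array 2), a 4.52-fold reduction. *MES1* (YGR264C), the methionyl enzyme, gave -1.93 and -2.01, and *CDC60* (YPL160W), the leucyl enzyme, -1.78 and -1.63. The tryptophanyl enzyme *WRS1* (YOL097C) gave -2.14 and -1.32, so its arrays differed by more than those of its neighbours in this order. *FRS2* (YFL022C), which encodes the alpha subunit of phenylalanyl-tRNA synthetase, gave -1.90 and -1.46, and its arrays overlapped with those of *WRS1* and *CDC60*.

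A further 5 synthetase genes were repressed to a smaller extent. The cysteinyl enzyme *CRS1* (YNL247W) and the glycyl enzyme *GRS1* (YBR121C) had means of -1.50 and -1.48. Those for serine (*SES1*, YDR023W), valine (*VAS1*, YGR094W) and asparagine (*DED81*, YHR019C) had -1.21, -1.13 and -1.06, close to the 2-fold limit. Just short of that limit were *THS1* (YIL078W, threonyl) with -0.91, YDR341C (arginyl) with -0.89, *ALA1* (YOR335C, alanyl) with -0.85 and *ILS1* (YBL076C, isoleucyl) with -0.78.

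The smallest responses were found in *GUS1* (YGL245W), the glutamyl enzyme, with 0.00 and -0.17, and in *HTS1* (YPR033C), the histidyl enzyme, with -0.60 and -0.27. The tyrosyl enzyme *TYS1* (YGR185C) had a mean of -0.53 and the lysyl enzyme *KRS1* (YDR037W) of -0.52. The arrays of *HTS1*, *TYS1* and *KRS1* overlapped, so their order is not resolved, while those of *GUS1* lay above all of them.

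The Arc1 protein binds the methionyl and the glutamyl enzymes into a complex and helps them to hold their tRNAs. The 3 genes of this complex responded unequally. Against -1.93 and -2.01 for *MES1*, *ARC1* (YGL105W) gave -0.66 and -0.34 and *GUS1* gave 0.00 and -0.17 in wild type cells. Their arrays did not overlap, with *MES1* lowest and *GUS1* highest. In *ptc6* cells the means were -1.25 for *MES1*, -0.48 for *ARC1* and -0.02 for *GUS1*, and in *ptc1 ptc6* cells -1.52, -0.49 and -0.05. The order of the 3 means was therefore the same in each strain.

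Synthetases fall into class I and class II by the fold of their catalytic domain, a grouping made after the values were seen. The wild type median was -1.32 in class I (10 genes, 6 repressed) and -0.99 in class II (8 genes, 4 repressed). Their ranges overlapped almost fully, from -2.17 to -0.08 in class I and from -1.68 to -0.44 in class II. Among genes that encode both the cytosolic and the mitochondrial enzyme, 4 were grouped (*ALA1*, *GRS1*, *HTS1* and *VAS1*), which need not be all of them. Their median was -0.99, and 2 of them were repressed.

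Among the modification genes, the lowest values were those of methyltransferases. *TRM8* (YDL201W), the catalytic subunit of a guanosine methyltransferase, had -3.11 and -3.36 in wild type cells, a 9.42-fold reduction. *TRM11* (YOL124C), the catalytic subunit of another guanosine methyltransferase, had -3.33 and -2.83, and *TRM3* (YDL112W), which methylates the ribose of a guanosine, -2.67 and -2.57. *TRM8* and *TRM11* overlapped and both lay below *TRM3*. The dimethylguanosine enzyme *TRM1* (YDR120C) followed with -2.41 and -2.46, and the cytosine methyltransferase *NCL1* (YBL024W) with -2.32 and -2.40. Both arrays of these 5 genes were past a 2-fold reduction by more than 1 log2 unit.

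Subunits of 1 enzyme were not repressed to the same extent. Trm82 is the partner that Trm8 needs for activity, yet *TRM82* (YDR165W) gave -1.36 and -1.48 in wild type cells, well above the values of *TRM8*. Gcd14 and Gcd10 together methylate an adenosine in the tRNA body, and in yeast are required for the maturation of the initiator tRNA. *GCD14* (YJL125C), the catalytic subunit, gave -1.71 and -2.06, and *GCD10* (YNL062C) gave -1.19 and -1.18. Their arrays did not overlap, with the catalytic subunit lower, as with *TRM8* and *TRM82*. *TRM112* (YNR046W), an activator of Trm11 and of other methyltransferases, had -1.61 on the only wild type array with a value, above both values of *TRM11*.

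The pseudouridine synthases overlapped with the methyltransferases. *PUS1* (YPL212C), which acts on many tRNA positions, gave -1.0 and -1.55, and *PUS7* (YOR243C) gave -0.92 and -1.01. *PUS4* (YNL292W), whose target is in the T loop, had 1 wild type value of -1.75, and *DEG1* (YFL001W), which acts in the anticodon arm, 1 of -0.51. Split by reaction, a grouping made after the values were seen, 8 of 9 measured methyltransferase genes were repressed with a median of -2.36. The exception was *TRM5* (YHR070W), which methylates the guanosine next to the anticodon, with -1.35 and -0.23 on arrays that differed by 1.12 log2 units. *TAN1* (YGL232W) had -0.54 and -0.68 and *MOD5* (YOR274W) -0.44 and -0.37, the smallest responses among the modification genes with values on both wild type arrays.

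Of 6 modification genes, values were missing on some array. *TRM7* (YBR061C), a ribose methyltransferase of the anticodon loop, had 1 value, -1.60 on array 2 of *ptc1 ptc6* cells. *TRM10* (YOL093W), a guanosine methyltransferase, had values in the double mutant only, -2.01 and -1.39. *TRM8* had 1 value in *ptc6* (-2.43) and 1 in *ptc1 ptc6* cells (-2.87), both above its wild type values. *TRM112* had *ptc6* values of -1.31 and -1.39, and *ptc1 ptc6* values of -0.93 and -2.36. For *PUS4* the values were -1.39 and -1.34 in *ptc6* and -1.34 and -2.14 in *ptc1 ptc6* cells, and for *DEG1* -0.01 and -0.66 in *ptc1 ptc6* cells. In the double mutant *TRM112* and *PUS4* thus differed between arrays by 1.44 and 0.80 log2 units.

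In *ptc6* cells, 13 of 33 measured genes were repressed (39.4%), against 13.7% of all genes, and in *ptc1 ptc6* cells 19 of 35 (54.3%), against 14.6%. None was above 1 in either mutant, where 10.3% and 12.1% of all genes lay, respectively. Repressed synthetase genes numbered 5 of 19 in *ptc6* and 8 of 19 in *ptc1 ptc6* cells, and repressed modification genes 8 of 14 and 11 of 16. The synthetase median was -0.73 in *ptc6* and -0.95 in *ptc1 ptc6* cells. On single arrays of *ptc6* cells it was -0.85 and -0.68, and on those of *ptc1 ptc6* cells -1.18 and -0.73, so that array 1 of the double mutant lay below both wild type arrays (-1.12 and -1.04). The modification counts rest on unequal sets of genes, since more had values in the mutants. Over the 12 modification genes with a value on all 6 arrays, 8 were repressed in wild type, 6 in *ptc6* and 8 in *ptc1 ptc6* cells. Over these 12 genes, the median was -1.35 in wild type, -1.19 in *ptc6* and -1.53 in *ptc1 ptc6* cells. Among the genes described here, the modification median was the lower one in each strain and on each array.

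The mean log2 ratio was higher in *ptc6* than in wild type cells, that is closer to 0, for 18 of 19 synthetase genes, with a median difference of 0.46 log2 units (0.26 to 0.46 over the 4 pairs of arrays). For 13 of them both *ptc6* arrays lay above both wild type arrays, and for 0 below. Among the 12 modification genes measured, 10 were higher, with a median difference of 0.22 (0.21 to 0.39 over the pairs), 9 without overlap, and 1 was lower without overlap. Over all genes the mean was higher in *ptc6* cells for 1556 of 2813, with a median difference of 0.04. Together 22 of the 31 genes described here were separated upwards (71.0%), against 29.2% of all genes. Of the 18 genes repressed in wild type cells, 14 were (77.8%), against 77.3% of all repressed genes. The share of repressed tRNA genes with a weaker response was thus close to the share of repressed genes in general.

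**Figure D2:**
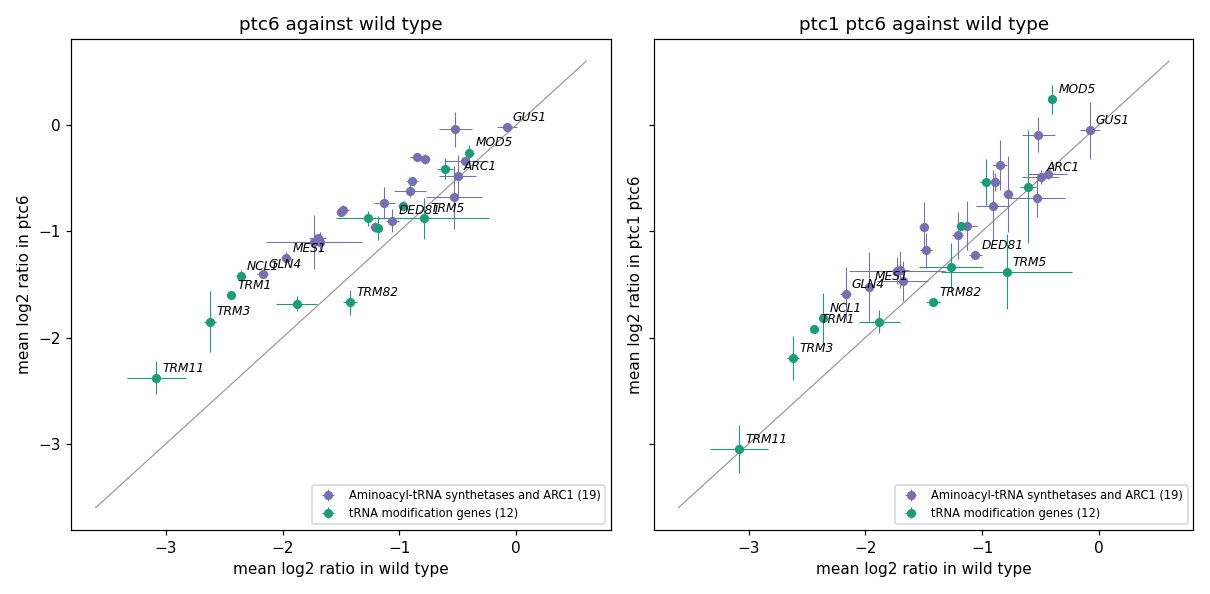
Mean log2 ratio in *ptc6* (left) and *ptc1 ptc6* cells (right) against that in wild type cells, for 19 synthetase and 12 modification genes, with bars from 1 array to the other and the line of equal response. In *ptc6* cells 28 of the 31 points lie above the line, and in *ptc1 ptc6* cells 25 do. Of all genes, 1556 of 2813 and 1306 of 2860 were higher than in wild type cells, respectively.

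The largest differences in *ptc6* cells were those of *NCL1* and *TRM1*. *NCL1* had -1.36 and -1.48 in *ptc6* cells, 0.94 above wild type cells (0.84 to 1.04 over the pairs of arrays). *TRM1* had -1.59 and -1.61, 0.84 above wild type cells (0.80 to 0.87). Both genes remained repressed in *ptc6* cells, and for both the arrays of each strain differed by far less than the strains did. *TRM3* gave -2.14 and -1.56 in *ptc6* cells, and *TRM11* -2.53 and -2.22, which were 0.77 and 0.70 above their wild type means.

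Among the synthetases, the largest differences without overlap were those of *GLN4* and *MES1*. *GLN4* gave -1.39 and -1.41 in *ptc6* cells, 0.77 above wild type cells (0.72 to 0.83), and *MES1* -1.31 and -1.20, 0.71 above (0.62 to 0.81). The share of the response lost in a mutant, counted as 0 where it has the wild type log2 value and 1 at a log2 value of 0, was 0.356 for *GLN4* and 0.363 for *MES1*. *CRS1* and *GRS1* were repressed in wild type but not in *ptc6* cells, with *ptc6* values of -0.80 and -0.83 for *CRS1* and -0.85 and -0.76 for *GRS1*, and lost shares of 0.457 and 0.456. Over the 10 synthetase genes repressed in wild type cells the median lost share was 0.359 (0.150 to 0.457), and over 8 modification genes 0.261 (-0.176 to 0.398), against 0.245 for all repressed genes.

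Some genes responded alike in both strains or more strongly in *ptc6* cells. *TRM82* gave -1.79 and -1.55 in *ptc6* cells, 0.25 log2 units below wild type cells and without overlap, while its partner *TRM8* lay higher on its only *ptc6* array. *GCD14* (-1.75 and -1.61 in *ptc6*), *DED81* (-1.01 and -0.80), *HTS1*, *GUS1*, *ARC1*, *TYS1*, *WRS1* and *TRM5* overlapped with their wild type values. For *WRS1* the difference was 0.62 but ran from -0.04 to 1.29 over the pairs of arrays. Of *TYS1*, at -0.15, and *TRM5*, at -0.08, the pairs ran from -0.68 to 0.39 and from -0.84 to 0.67.

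**Figure D3:**
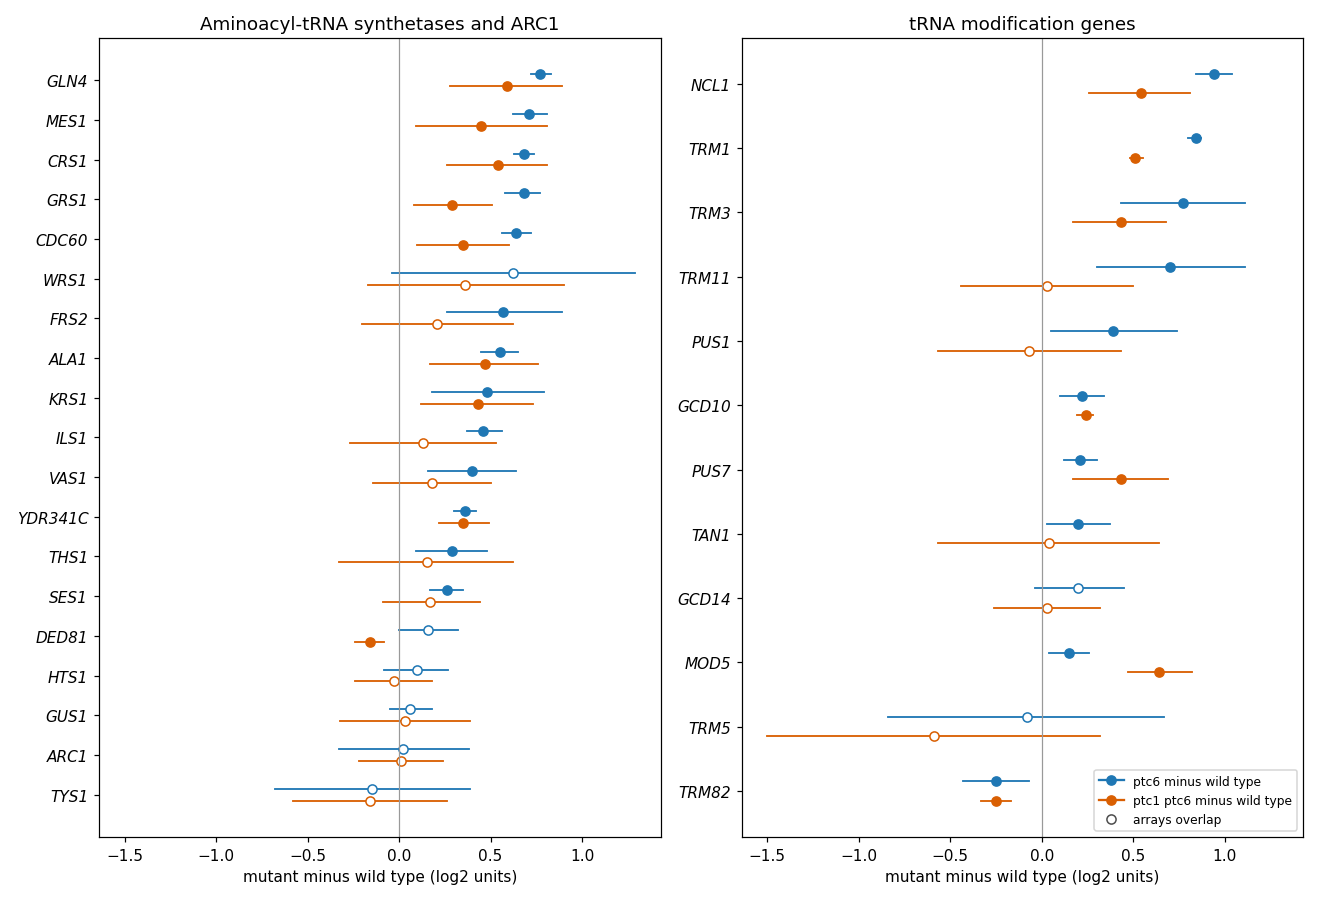
Difference of the mean log2 ratio, mutant minus wild type (x axis, log2 units), for each synthetase (left) and modification gene (right) with a value on all 6 arrays. Lines span the 4 pairs of arrays and open points mark genes whose arrays overlap between strains. The difference in *ptc6* cells was largest for *NCL1*, at 0.94, and *GLN4*, at 0.77.

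Over all genes the difference in *ptc6* cells was larger where the wild type response was larger. In *ptc1 ptc6* cells it was 0.20 both between -2 and -1 and between -4 and -2. The classes were therefore also set side by side within ranges of the wild type log2 ratio. Between -2 and -1, the median difference in *ptc6* cells was 0.62 for 9 synthetase and 0.21 for 4 modification genes, beside 0.39 for 247 genes in all, and in *ptc1 ptc6* cells it was 0.29 and -0.02, beside 0.20. Between -1 and 0, it was 0.29 for 9 synthetase and 0.18 for 4 modification genes in *ptc6* cells, beside 0.12 for all genes, but 0.13 and 0.23 in *ptc1 ptc6* cells, beside 0.03. Between -4 and -2, the 4 modification genes (*TRM1*, *TRM3*, *TRM11* and *NCL1*) had 0.80 in *ptc6* and 0.47 in *ptc1 ptc6* cells, beside 0.64 and 0.20 for all genes. The order of the classes was thus not the same in every range and mutant, and the modification medians rest on 4 genes each.

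In *ptc1 ptc6* cells, the mean log2 ratio was above that of wild type cells for 16 of 19 synthetase genes, with a median difference of 0.21 (0.08 to 0.44 over the pairs of arrays). For the 12 modification genes the median difference was 0.14 (0.18 to 0.49 over the pairs, where medians of pairs need not enclose that of the means), and 9 were higher. Over all genes the mean was higher in *ptc1 ptc6* cells for 1306 of 2860, with a median difference of -0.03. Without overlap, 8 synthetase and 6 modification genes were higher and 1 of each class was lower. The 14 of 31 genes higher without overlap (45.2%) compare with 19.3% of all genes, and 9 of 18 among those repressed in wild type cells (50%) with 44.0%. Single arrays weighed on this comparison. For the modification genes the median difference was 0.17 to 0.39 when each array was left out in turn, the highest without array 1 of *ptc1 ptc6* cells. With each array left out in turn, the median difference of the synthetases was lowest, at 0.13, without array 2 of *ptc1 ptc6* cells. It was highest, at 0.41, without array 1 of these cells. The count of synthetases higher without overlap was 13 without array 2 of wild type or array 1 of *ptc1 ptc6* cells. Such a count cannot fall when an array is left out, since fewer pairs of arrays must then be separated. The share of all genes under that looser rule was not computed.

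*GLN4* and *CRS1* differed most among the synthetases, with *ptc1 ptc6* values of -1.84 and -1.33 for *GLN4* and -1.20 and -0.73 for *CRS1*, 0.59 and 0.54 above wild type cells. Of the modification genes, *MOD5* and *NCL1* differed most without overlap. *MOD5*, which transfers an isopentenyl group to an adenosine of the anticodon loop, had 0.10 and 0.38 in *ptc1 ptc6* cells, 0.64 above wild type cells (0.47 to 0.82 over the pairs). It was the only gene described here with positive values on both arrays of a strain. *NCL1* gave -2.06 and -1.59, 0.54 above wild type cells, and *TRM1* -1.91 and -1.93, 0.51 above (0.48 to 0.55).

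*DED81* (-1.20 and -1.25 in *ptc1 ptc6* cells) and *TRM82* (-1.69 and -1.65) were lower than in wild type cells without overlap, by 0.16 and 0.25 log2 units in the means. *TRM11*, at -3.28 and -2.83, and *GCD14*, at -1.74 and -1.96, had nearly their wild type means, with differences of 0.03 each. *PUS7* (-0.75 and -0.32) was higher by 0.43, and *PUS1* (-1.57 and -1.12) overlapped with its wild type values. *TRM5*, at -1.03 and -1.73, had the most negative difference, -0.59, which ran from -1.50 to 0.32 over the pairs of arrays.

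Set against *ptc6* cells directly, the mean in *ptc1 ptc6* cells was the lower one for all 19 synthetase genes. Their median difference was -0.15 (-0.37 to 0.07 over the pairs of arrays). It was the lower one for 10 of 14 modification genes, with a median of -0.31 (-0.25 to 0.03 over the pairs, which need not enclose it). Both ranges over the pairs reached past 0. Over all genes the median was -0.09. The mean was higher in *ptc1 ptc6* cells for 1113 of 3078 of all genes, beside 0 of 19 synthetase and 4 of 14 modification genes. Both *ptc1 ptc6* arrays lay below both *ptc6* arrays for 5 synthetase genes (*DED81*, *CDC60*, *FRS2*, *GRS1* and *HTS1*) and 4 modification genes (*TRM1*, *TRM11*, *PUS1* and *NCL1*). These 9 of 33 genes (27.3%) compare with 25.7% of all genes. *MOD5* was the single gene with both *ptc1 ptc6* arrays above both *ptc6* arrays.

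Across the 31 genes with values in all strains, which are not independent replicates, the wild type means correlated with those of *ptc6* cells with a Pearson r of 0.921 and with those of *ptc1 ptc6* cells with 0.922. The order of the genes was largely shared between strains. Across 32 genes, wild type means and gene length had an r of -0.092.

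The difference between the 2 arrays of a strain had a pattern of its own. Taking the array with the rapamycin sample in Cy5 minus that with it in Cy3, the synthetase genes had a median of 0.10 in wild type, 0.09 in *ptc6* and -0.35 in *ptc1 ptc6* cells, against 0.09, 0.14 and 0.04 for all genes. The 12 modification genes had -0.06, 0.14 and -0.34, so the low value in *ptc1 ptc6* cells was shared by both classes. Across the 19 synthetase genes this difference correlated between strains with an r of 0.797 (wild type and *ptc6*), 0.841 (wild type and *ptc1 ptc6*) and 0.775 (both mutants), against 0.457, 0.450 and 0.517 over all genes. Across the 12 modification genes r was 0.586, 0.482 and 0.469. *WRS1* (0.82, 0.51 and 0.25 in wild type, *ptc6* and *ptc1 ptc6* cells), *TYS1* (0.48, 0.59 and 0.37) and *TRM5* (1.12, 0.39 and 0.70) were higher with Cy5 in each strain. *THS1* (-0.28, -0.11 and -0.66) was lower in each. The sign was shared by all strains in 14 of 31 genes (45.2%), against 52.0% of all genes. Each strain mean holds both dye orientations once, and for every gene the mean over pairs of arrays of the same orientation equals the difference of the strain means. Averaged over the same-orientation pairs, the class medians of the difference from wild type were 0.46 (*ptc6*) and 0.26 (*ptc1 ptc6*) for the synthetases, and 0.30 and 0.34 for the modification genes.

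**Figure D4:**
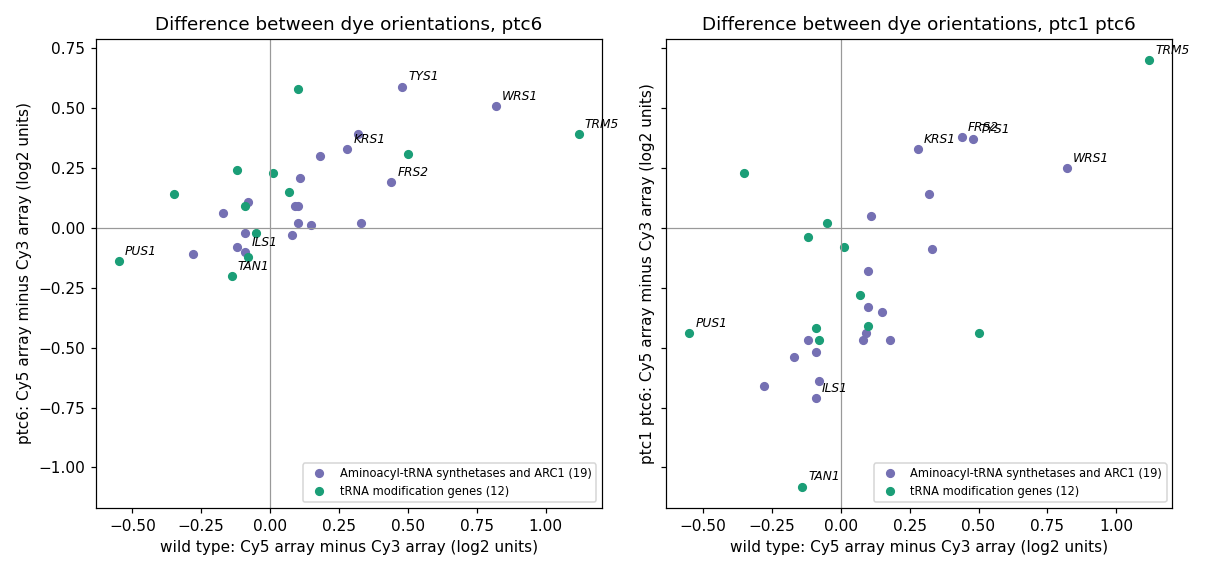
Log2 ratio with the rapamycin sample in Cy5 minus that with it in Cy3, in wild type cells (x axis) against *ptc6* (left) or *ptc1 ptc6* cells (right), 1 point per gene with a value on all 6 arrays. *WRS1* and *TYS1* lie to the upper right in both panels, and most synthetases lie below 0 in *ptc1 ptc6* cells, where their median was -0.35 and that of the modification genes -0.34.

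Other genes of tRNA biology were measured less completely. Of 13 nuclear genes for mitochondrial synthetases outside chromosomes XII and XIII, 6 had values on both wild type arrays and 0 were repressed, with a median of 0.04. Their extremes were the seryl enzyme *DIA4* (-1.22 and -0.63) and the arginyl enzyme *MSR1* (0.61 and 0.54). Among 10 genes for the Elongator complex and other modifiers of the wobble uridine, 5 were measured and 0 repressed, with a median of -0.02, from *URM1* (-0.53 and -1.02) to *UBA4* (0.92 and 0.98). *ELP3*, the catalytic subunit of Elongator, had -2.47 on its only wild type array and is outside that count. The share past the limit was thus 10 of 19 for the cytosolic and 0 of 6 for the mitochondrial synthetases, a difference that was not tested.

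Of 17 further modification genes, 7 were measured on both wild type arrays and 1 of these, *SUA5*, which acts in the formation of threonylcarbamoyladenosine, was repressed (-1.64 and -1.60). The highest of the 7 was *THG1*, the tRNA-His guanylyltransferase (0.50 and 0.68), and the median was -0.24. Of 16 genes for splicing, end processing and export, 4 were measured on both, with *POP5*, a subunit of RNase P, repressed (-1.12 and -1.23) and *POP1* the highest (-0.24 and -0.20). Over these lists, 34 of the 56 genes had no value on at least 1 wild type array, and 17 of these had a value on 1 of them. That value was below -1 for 6 genes, which were *ELP3*, *SMM1* (-1.10), *TRM44* (-1.04), *TYW1* (-1.50), *PUS2* (-1.77) and *CCA1* (-1.20), named after their values were seen. The medians and counts of these lists leave them out.

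**Figure D5:**
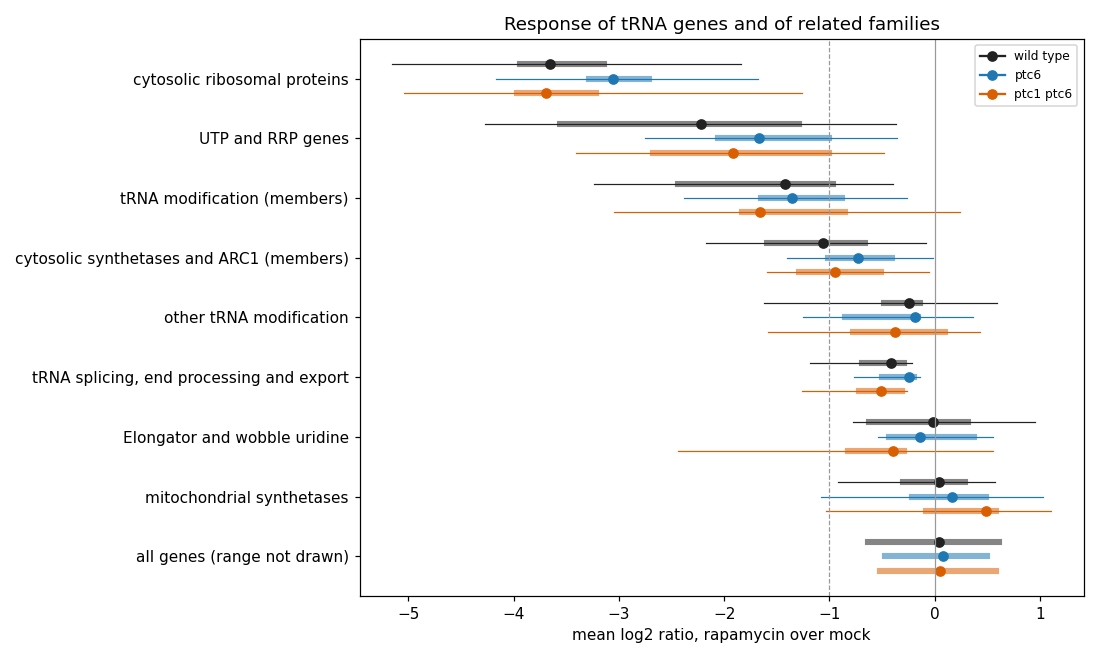
Mean log2 ratio of rapamycin over mock (x axis) for the genes described here and for related families, by strain. Points are medians, thick bars quartiles and thin lines the full range, and the dashed line marks the 2-fold limit. Medians in wild type cells ran from -3.65 for ribosomal proteins to 0.04 for mitochondrial synthetases.

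Genes for cytosolic ribosomal proteins and for ribosome assembly, the families most alike in function, were lower still. All 96 ribosomal protein genes measured were repressed in wild type cells, with a median of -3.65, and 18 of 22 genes with a UTP or RRP name, which act in ribosome assembly and RNA processing, with -2.22. In *ptc6* cells their medians were -3.06 and -1.67. The median lost share in *ptc6* cells was 0.165 for the ribosomal protein genes and 0.356 for the UTP and RRP genes, beside 0.359 for synthetase and 0.261 for modification genes. In *ptc1 ptc6* cells the medians were -3.69 and -1.92, and the lost shares -0.00988 and 0.242, beside 0.202 for synthetase and 0.0906 for modification genes. With each array left out in turn, the lost share in *ptc1 ptc6* cells was 0.0946 (without array 2 of these cells) to 0.316 (without their array 1) for the synthetases. For the modification genes it was 0.0441 (without array 2 of wild type cells) to 0.162 (without array 1 of *ptc1 ptc6* cells), and 0.0175 where a value on 1 array was enough. The order of the families by lost share is therefore not settled in the double mutant.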

How the data were processed

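RNA of rapamycin-treated and mock-treated cells of each strain was co-hybridized by the authors to 2 arrays with the dyes exchanged. Spots with a diameter under 120 µm or fluorescence under 150 units were left out by the authors, and the data were pre-processed with GEPAS. The deposited values are log2 ratios of rapamycin over mock. Their direction was taken from the sample titles and checked on *GAP1* (5.29 to 7.21 on the arrays). The normalization and centring are not given in the sources used here, and intensities were not analysed here.

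A strain's value was the mean of both arrays where both had one. Mutant and wild type arrays were called separated when both of one lay beyond both of the other. The background was all genes outside chromosomes XII and XIII, as for the genes described, because wild type and *ptc6* rows of those chromosomes may stand on other ORFs. No test was made, as each strain had 1 biological replicate. Comparisons of each mutant with wild type share the wild type arrays. Of 6212 ORFs, 5639 matched the R64 annotation by name. The genes and gene lists were chosen with earlier results of these data known. Values per array were given for the 4 lowest and 2 highest genes of a class in wild type cells, the 2 largest differences without overlap in each mutant, subunits of shared complexes, genes with missing values and the extremes of other lists. Further genes were named to describe the rest, after their values were seen. Alternatives were the threshold, centring, averaging, gene sets and leaving out each array. Scripts (Python 3.11.15, pandas 2.3.3, numpy 2.4.6, matplotlib 3.10.9) were tested on simulated data. Promoter and protein sequences were not analysed here. Array number limits the precision.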

Additional observations from a re-analysis of the deposited data

Results flagged for a closer look

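*MOD5*, the tRNA isopentenyltransferase gene, had log2 ratios of 0.10 and 0.38 on the *ptc1 ptc6* arrays, where wild type cells gave -0.44 and -0.37 and the *ptc6* mutant gave -0.33 and -0.18. Both double mutant arrays thus lay above 0 and both arrays of the other strains below it. The difference of the means was 0.64 against wild type and 0.49 against *ptc6* cells, and neither was tested. No mean of *MOD5* passed the 2-fold limit.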

How the results depend on the processing

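Some alternatives could not move a result, since all synthetases had a value on all 6 arrays and settings on missing values left them unchanged. With these included, no median, difference or lost share changed sign. Of 217 alternative values of comparisons, 203 moved by less than 1 SD between arrays or, for counts, stayed within 1.5 times the reported one. Because that SD is wide beside small values, some of the 203 moved far in *ptc1 ptc6* cells, as for the median difference of modification genes (0.10 to 0.39) and their lost share (0.0175 to 0.162), the lost share of synthetases (0.0946 to 0.316) and the repressed synthetases (7 to 12 with an array left out). The modification median was the lower one in 21 of 21 alternatives, and the median difference from wild type was above 0 in 18 of 18 for each mutant. None of these brought in modification genes from outside the 18 chosen. The other lists of modification genes had wild type medians of -0.24 (7 genes) and -0.02 (5 genes, Elongator and wobble uridine), above the synthetase median of -1.06. The order of the class medians therefore holds for the chosen genes only. Counts moved with the limit. With a 3-fold limit, 5 synthetases were repressed in wild type, 0 in *ptc6* and 1 in *ptc1 ptc6* cells. For the modification genes the counts were 6 of 13 measured, 5 of 14 and 9 of 16. Of all genes, 12.2%, 8.27% and 8.73% were past that limit in wild type, *ptc6* and *ptc1 ptc6* cells. A 1.5-fold limit gave 12 synthetases in *ptc6* cells and 13 in the double mutant, where 21.8% and 23.2% of all genes were past it. A difference of means over 0.5, in place of separated arrays, was found for 8 synthetase and 4 modification genes in *ptc6* cells. The double mutant had 2 and 3. The share of all genes past that difference was not computed, so these counts have no background beside them. Without *ARC1*, *TAN1* and *MOD5*, the wild type modification median was -1.89 and the class difference -0.79, since the removed modification genes were the highest. Leaving out each array in turn gave 8 to 13 synthetases higher in *ptc1 ptc6* cells and 13 to 17 in *ptc6* cells. These counts can only stay or rise, since fewer pairs of arrays must then be separated. Of 593 values of single genes under alternatives, 22 moved beyond the spread of the arrays. No mean beyond 1 log2 unit changed sign, but some near 0 did, such as *KRS1* in *ptc6* cells (-0.04, and 0.13 without array 1). The settings on missing values could not change any of these single-gene means. The mean of linear ratios and values on at least 1 array gave no count of separated genes. No paired analysis was possible because no test was made and the array numbers mark no culture shared between strains. They follow the same dye order in wild type and *ptc6* cells and the reverse in *ptc1 ptc6* cells. Arrays of equal dye order were set against each other, which took the median difference of modification genes in *ptc1 ptc6* cells from 0.14 to 0.34 through averaging pair medians alone. With 1 culture per strain, differences between strains include any difference between the single cultures, and its size cannot be estimated here. Signal over background is not known here, so the reliability of single values rests on the agreement of both arrays.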
